A study of Carassius auratus with 6 samples.

Results

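AP-2 proteins are transcription factors that bind GC-rich sites in DNA as dimers, through a basic helix-span-helix domain. In vertebrate embryos they act in the surface ectoderm and its epithelia, in the neural crest and in the lens, and in the mouse retina AP-2 proteins mark amacrine and horizontal cells, the interneurons that work with inhibitory transmitters. The family has the members tfap2a, tfap2b, tfap2c, tfap2d and tfap2e. In goldfish (Carassius auratus) many genes have a pair of copies from a genome duplication in the ancestor of goldfish and carp.

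Of 56251 gene models measured in goldfish eyes, 8 were AP-2 genes. A model was taken where the gene name of its best Swiss-Prot match was 1 of the 5 AP-2 names, or where its description named transcription factor AP-2, and all 8 models met both criteria. They were 2 copies each of tfap2a, tfap2c, tfap2d and tfap2e, and no model matched tfap2b, which is not analysed here. The copies of each gene lay on chromosomes whose numbers differ by 25 (24 and 49, 6 and 31, 20 and 45, 19 and 44). The same offset was found for 3454 of the 4520 Swiss-Prot names that were carried by exactly 2 models on the 50 numbered chromosomes (76.4%).

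Whole-eye RNA from 6 goldfish was sequenced, with 3 libraries under the letter C and 3 under the letter R, to compare celestial eyes, which point upward in this fancy breed, with normal eyes. The labels contradict each other on the letters: by the sample characteristics C is the normal and R the celestial eye, and by the series' design text C is the celestial and R the normal eye. The groups are therefore called by their letters, every difference is C relative to R, and no direction below is a direction for the celestial eye. All fish were 1 winter year old, and each group came from a farm of its own (in the design text Beijing for C and Jiangsu Province for R), so that farm, stock and eye type cannot be told apart. No genotype, sex or treatment is given in the labels, which name 3 fish per group without tying a library to a fish. The p-values below therefore cover the spread among libraries, which may be technical.

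Values are FPKM, reads per kilobase of gene model scaled to the library total. Totals recovered from them were 9444623 to 11017539 reads in C and 9829134 to 11317200 in R, at which 3 reads in a model of 1 kb correspond to 0.265 to 0.318 FPKM. The letters separated on the first principal component (64.1% of the variance), and the second (14.7%) set C3 against C1 and C2. Eye identity was clear in every library: 48 models matched to photoreceptor gene names summed to 34210 to 47294 FPKM in C and 32048 to 38317 in R.

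The family was chosen by the C and R values of the tfap2a copy on chromosome 24, which had been seen to differ in these same libraries, so that copy is described without a test. For the other copies, which were taken by name, the test was limma on log2(FPKM + 1) over all 33907 models with at least 1 FPKM in at least 3 libraries, with p-values adjusted over all of them (Benjamini-Hochberg). Of the other 7 AP-2 models, 6 were tested, and each of these had at least 1 FPKM in all 6 libraries. Of the 6, 5 were lower in C at an adjusted p under 0.05 and 0 were higher. Of all tested models, 11.6% were lower and 8.67% higher by this rule (20.2% in either direction), and nothing is read from the members' count against these shares because the contrast also chose the family. In 5 of the other 7 AP-2 models every C library lay below every R library, which held for 25.1% of all tested models, and in 0 every C library lay above every R library, which held for 16.3%. Whole eyeballs were sequenced, so fewer cells of a type and less RNA per cell cannot be told apart.

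**Figure D1:**
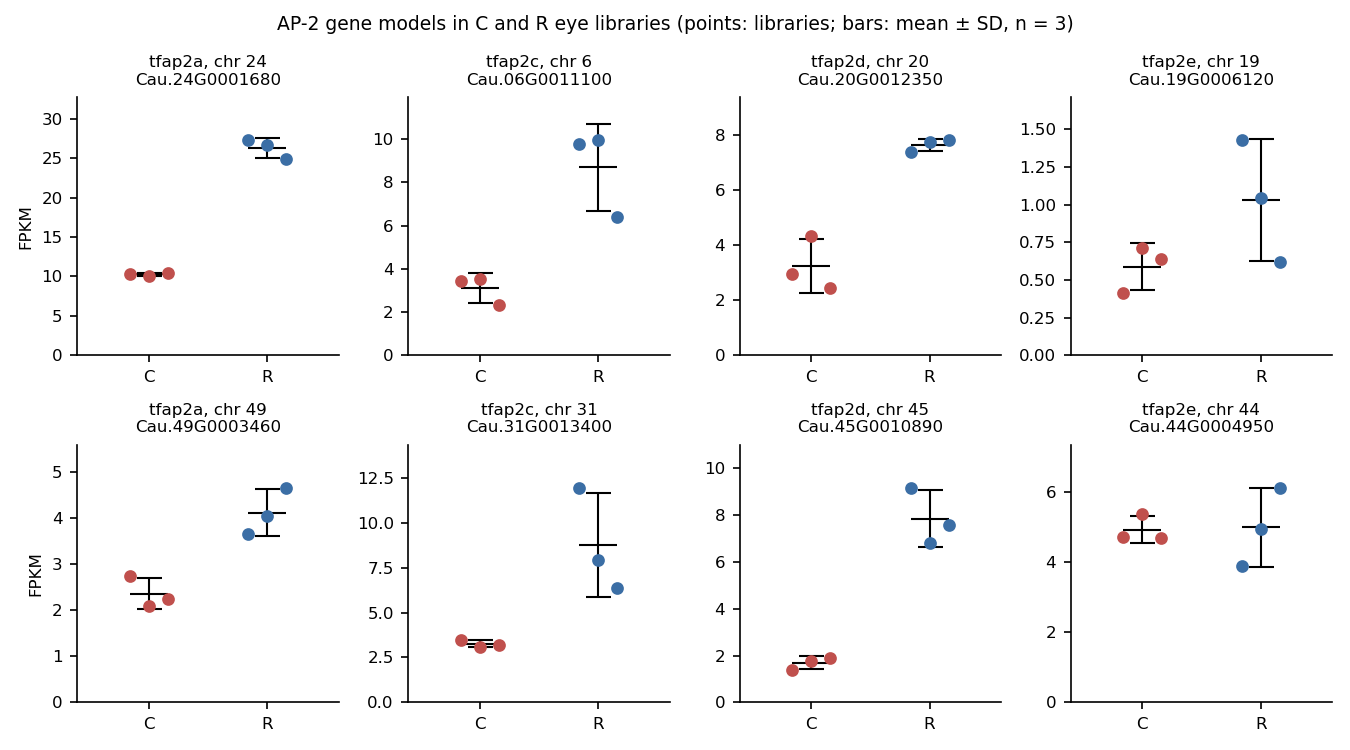
FPKM (y axis, from 0, own scale per panel) of the 8 AP-2 gene models in the C libraries (red) and the R libraries (blue), with points for libraries and bars for mean ± SD (n = 3 each). In the tfap2a, tfap2c and tfap2d panels every C point lies below every R point, which held for 25.1% of all tested models. In the tfap2e panels the groups overlap. The tfap2a panel of chromosome 24 shows the copy that chose the family.

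tfap2a was the most abundant AP-2 gene. It encodes AP-2 alpha, which acts in the surface ectoderm, the lens and the neural crest, and in retinal amacrine and horizontal cells in the mouse. Its main copy, Cau.24G0001680, lies on the plus strand of chromosome 24 from 7431745 to 7442799 (the assembly of the coordinates is not given in the sources used here) and is the only AP-2 model whose accession carries a tfap2 symbol in the goldfish RefSeq table. It had 10.4, 10.1 and 10.4 FPKM in C1, C2 and C3, and 27.3, 26.7 and 24.9 FPKM in R1, R2 and R3. The groups were far apart and each was tight, with the lowest R library 2.40 times the highest C library. The means were 10.3 ± 0.172 FPKM in C libraries, against 26.3 ± 1.23 in R libraries (SD, n = 3 each), from 1253 and 3341 reads over the group, and the log2 difference was -1.28 (SE 0.10).

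The second tfap2a copy, Cau.49G0003460 (chromosome 49, 11151120 to 11159880, minus strand), was a minor one. It had 2.73, 2.10 and 2.24 FPKM in C1, C2 and C3, and 3.65, 4.05 and 4.66 FPKM in R1, R2 and R3. The groups did not overlap but came close, at 2.73 in C1 and 3.65 in R1. The C over R log2 fold change came to -0.61 (SE 0.16, limma adjusted p = 0.0363). The call was narrow: in 13 alternatives that could test this copy the adjusted p ran from 0.0188 to 0.116, and 9 of them missed the threshold, with the difference negative in all 13. Among the 9 are the fits that leave out any 1 of the 6 libraries, with adjusted p-values of 0.0585 without C1, 0.0784 without C2, 0.0609 without C3, 0.0697 without R1, 0.106 without R2 and 0.116 without R3.

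Both copies of tfap2c fell in C by similar amounts. tfap2c encodes AP-2 gamma, which acts beside AP-2 alpha in ectoderm and neural crest of zebrafish and in the trophoblast and skin of mammals. The copy on chromosome 6, Cau.06G0011100 (28133149 to 28144170, minus strand), had 3.45, 3.54 and 2.32 FPKM in C1, C2 and C3, and 9.75, 9.94 and 6.38 FPKM in R1, R2 and R3. The copy on chromosome 31, Cau.31G0013400 (34551332 to 34561473, minus strand), had 3.49, 3.10 and 3.19 FPKM in the C libraries, and 11.9, 7.92 and 6.39 FPKM in the R libraries. Within C the chromosome 31 copy barely varied, while within R both copies were lowest in R3. The log2 fold changes were -1.23 (SE 0.21, limma adjusted p = 0.00659) for chromosome 6 and -1.16 (SE 0.21, adjusted p = 0.00896) for chromosome 31. Without R1, the highest R library of the chromosome 31 copy, its log2 fold change came to -0.93 (SE 0.18, adjusted p = 0.0202).

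tfap2d had the AP-2 copy with the most negative fold change. AP-2 delta, its product, is known from the midbrain of the mouse and from a subset of retinal ganglion cells, the output neurons of the retina, in the chick. The copy on chromosome 45, Cau.45G0010890 (26972146 to 26995792, minus strand), had 1.37, 1.79 and 1.90 FPKM in C1, C2 and C3, and 9.18, 6.80 and 7.57 FPKM in R1, R2 and R3. Every R library was at least 3.58 times the highest C library. The means were 1.69 ± 0.277 FPKM in C libraries, against 7.85 ± 1.22 in R libraries (n = 3 each), from 123 and 591 reads, and the log2 fold change came to -1.72 (SE 0.17, limma adjusted p = 0.000723).

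The copy of tfap2d on chromosome 20, Cau.20G0012350 (27735954 to 27761616, minus strand), had 2.94, 4.32 and 2.45 FPKM in C1, C2 and C3, and 7.38, 7.73 and 7.80 FPKM in R1, R2 and R3. Here the R libraries were nearly equal and C2 stood above C1 and C3 without reaching R. The C over R log2 fold change came to -1.05 (SE 0.18, limma adjusted p = 0.00711). What these models cover is uncertain. They span 25663 and 23647 bases, against 6182 to 13924 for the other AP-2 models, and RefSeq's goldfish annotation (ASM336829v1), taken for names and gene order alone, has tfap2b as the direct neighbour of tfap2d. Whether the tfap2d models take in reads of tfap2b was not tested.

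Neither tfap2e copy had a called difference. tfap2e encodes AP-2 epsilon, known from the olfactory bulb of the mouse and from zebrafish pigment cells, where it acts with tfap2a. Its main copy, Cau.44G0004950 (chromosome 44, 10531445 to 10537626, minus strand), had 4.72, 5.35 and 4.69 FPKM in C1, C2 and C3, and 3.88, 4.95 and 6.12 FPKM in R1, R2 and R3. The R range enclosed the C range. The means were 4.92 ± 0.375 FPKM in C libraries, against 4.98 ± 1.12 in R libraries (n = 3 each), and the log2 difference was 0.00 (SE 0.17, limma adjusted p = 0.9996). This does not show equal expression, since the SE of 0.17 leaves room for modest differences in either direction.

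The second tfap2e copy, Cau.19G0006120 (chromosome 19, 12091243 to 12105166, minus strand), was the lowest AP-2 model and was not tested, with at least 1 FPKM in only 2 libraries. It had 0.412, 0.715 and 0.636 FPKM in C1, C2 and C3, and 1.43, 1.04 and 0.619 FPKM in R1, R2 and R3, from 23 reads over C and 41 over R. R3 lay inside the C range. Without a low-value filter the fold change in log2 was -0.34 (SE 0.20, limma adjusted p = 0.309). An unnamed model on the opposite strand overlaps it, with 0.55 FPKM in C libraries, against 0.644 in R libraries on average, and since the strand setting is not given, reads of this pair may not be separated. The chromosome 31 copy of tfap2c also has an overlapping opposite-strand model, which averaged 0.129 FPKM in C libraries, against 0.0461 in R libraries, far below tfap2c itself.

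**Figure D2:**
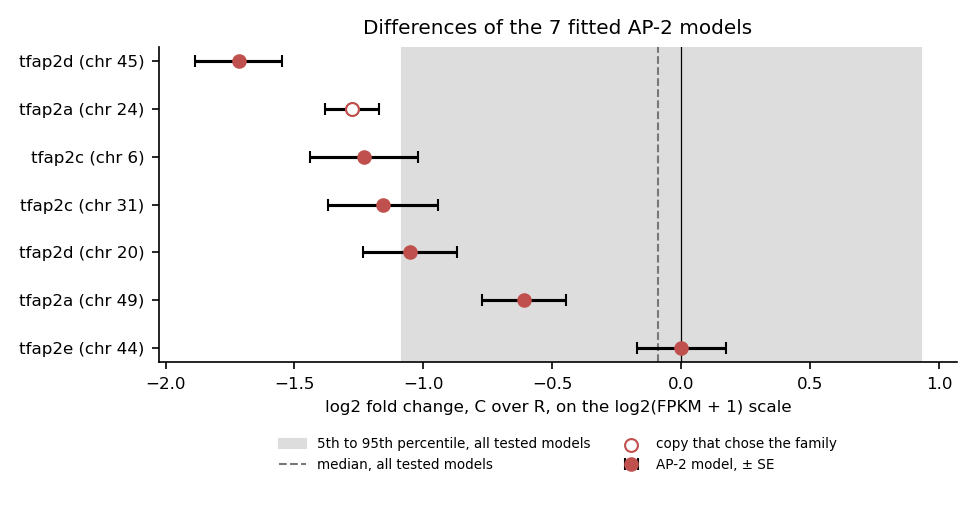
Log2 fold change of C over R on the log2(FPKM + 1) scale (x axis) for the 7 fitted AP-2 models, with SE bars and the copy that chose the family as an open point, over the range from percentile 5 to percentile 95 of all tested models (grey) and their median of -0.09 (dashed). The models of tfap2a on chromosome 24, of tfap2c and of tfap2d lie between -1.72 and -1.05, and tfap2e on chromosome 44 lies at 0.00.

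The median log2 fold change of the 6 AP-2 models tested beside the chromosome 24 copy of tfap2a was -1.10, and that of all tested models was -0.09, with percentile 5 at -1.08 and percentile 95 at 0.93. As with the members' count, nothing is read from this comparison of medians, because the contrast also chose the family. Within all tested models the chromosome 45 copy of tfap2d stood at percentile 1.52, the tfap2c copies at 3.73 and 4.32, tfap2d on chromosome 20 at 5.34 and tfap2a on chromosome 49 at 14.8. The fold on the log2(FPKM + 1) scale understates the change of low models. As plain ratios of means, C over R, the values were 0.215 for tfap2d on chromosome 45, 0.424 for tfap2d on chromosome 20, 0.357 and 0.372 for tfap2c on chromosomes 6 and 31, 0.572 for tfap2a on chromosome 49 and 0.988 for tfap2e on chromosome 44.

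The order of the levels (FPKM, which is per length) differed between the letters. In C, tfap2a on chromosome 24 came first and tfap2e on chromosome 44 second, each without overlap with the next model. The chromosome 31 copy of tfap2c, the chromosome 20 copy of tfap2d, the chromosome 6 copy of tfap2c and the chromosome 49 copy of tfap2a followed between 3.26 and 2.36 FPKM on average, and neighbours among these 4 overlapped. In R, tfap2a on chromosome 24 was again first, and the 4 copies of tfap2c and tfap2d came next between 8.75 and 7.64 FPKM, overlapping one after the other. The chromosome 44 copy of tfap2e was sixth there and overlapped the minor tfap2a copy. By mean FPKM over all libraries, tfap2a on chromosome 24 stood at percentile 91.9 of all models in the table, the other members but the minor tfap2e copy between percentiles 60.7 and 74.1, and that copy at 37.6.

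**Figure D3:**
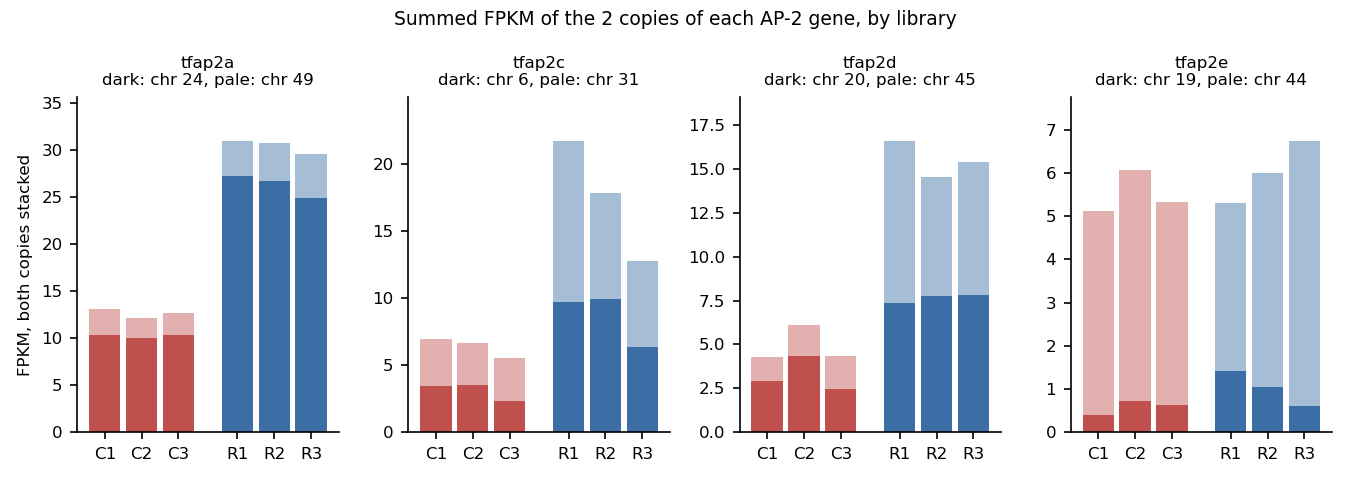
Summed FPKM (y axis, from 0, own scale per panel) of both copies of each AP-2 gene in the C libraries (red) and the R libraries (blue), with the lower-numbered chromosome dark and the other pale. For tfap2a, tfap2c and tfap2d every C bar is lower than every R bar, which held for 25.1% of single tested models. For tfap2e the bars overlap. The dark part of the tfap2a bars is the copy that chose the family.

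Adding both copies lessens differences that come only from how reads divide between them. It does not remove them all, since FPKM is per length and the copies of a gene differ in length (4028 and 2673 bases for tfap2a). The tfap2a copies summed to 12.6 ± 0.458 FPKM in C libraries, against 30.4 ± 0.738 in R libraries (SD, n = 3 each). The tfap2c copies summed to 6.36 ± 0.754 FPKM in C libraries, against 17.4 ± 4.48 in R libraries. The tfap2d copies summed to 4.92 ± 1.03 FPKM in C libraries, against 15.5 ± 1.03 in R libraries. For tfap2c and tfap2d the highest C sum was under the lowest R sum (exact permutation test, two-sided, p = 0.1 each, the smallest that 20 splits allow), with differences of -1.30 and -1.49 in mean log2(sum + 1). Among single tested models, 25.1% had every C library below every R library. The tfap2e copies summed to 5.51 ± 0.495 FPKM in C libraries, against 6.01 ± 0.712 in R libraries, with overlapping libraries (difference -0.11, exact permutation p = 0.5). All 8 models together summed to 29.5, 31.0 and 27.8 FPKM in C1, C2 and C3, and to 74.5, 69.1 and 64.4 FPKM in R1, R2 and R3. This total and the tfap2a sum include the copy that chose the family, so nothing is read from their differences.

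The division between copies differed from gene to gene. The chromosome 24 copy gave 81.4% ± 1.97 of tfap2a FPKM in C and 86.4% ± 2.01 in R. For tfap2c the chromosome 31 copy gave 51.6% ± 5.76 in C and 49.8% ± 5.36 in R, an even division that differed by less than the spread between libraries (exact permutation p = 0.7). For tfap2d the chromosome 20 copy gave 68.2%, 70.7% and 56.4% in C1, C2 and C3, and 44.6%, 53.2% and 50.7% in R1, R2 and R3. These shares did not overlap (means 65.1% in C and 49.5% in R, exact permutation p = 0.1, the smallest possible), so chromosome 20 gave more of tfap2d in every C library than in any R library. For tfap2e the chromosome 44 copy gave 89.4% ± 2.21 in C and 82.2% ± 8.84 in R (exact permutation p = 0.3).

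AP-2 alpha and AP-2 gamma are best known from surface epithelia, such as those of the cornea and conjunctiva, and more epithelial genes were lower than higher in C. Of 36 symbols listed, 31 had a model, 136 models in all, of which 5 had no read in any library. Of 99 tested, 49 were lower and 7 higher in C (49.5% and 7.07%, beside 11.6% and 8.67% of all tested models), with a median log2 fold change of -0.89. The summed FPKM of the list was 2235 to 3030 in C and 3798 to 5022 in R, without overlap, as was the case in this direction for 25.1% of single tested models. Leaving out R2 or R3 lowered the count of models higher in C to 4 each. The part of this list in the AP-2 differences was not tested.

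Among epithelial transcription factors, the summed copies of tp63 and grhl2 were lower in every C library than in any R library, while those of klf4 overlapped. Every C library lay below every R library in 25.1% of single tested models. tp63, a master regulator of stratified epithelia, summed to 12.8 ± 2.41 FPKM in C libraries, against 39.4 ± 7.97 in R libraries (n = 3 each). grhl2, encoding a grainyhead factor of epithelial junctions, summed to 4.14 ± 0.216 FPKM in C libraries, against 22.2 ± 5.34 in R libraries. The 4 members with the smallest p were single copies. A krt18 copy, for an epithelial keratin, had 0.15 ± 0.17 FPKM in C libraries, against 20.6 ± 4.71 in R libraries (log2 fold change -4.22), yet all 12 krt18 models summed to 511 ± 70.5 FPKM in C libraries, against 406 ± 36.3 in R libraries. A krt17 copy (-3.39), an epcam copy for an epithelial adhesion molecule (-2.81) and a copy of esrp1, an epithelial splicing regulator (-2.52), were also lower in C, with limma adjusted p-values of 3.03e-05 to 0.000525 for the 4. Other copies went the other way: a second epcam copy (1.83) and both copies of cldn7a, for a tight junction protein (1.74 and 1.05), were higher in C. All 3 epcam models summed to 179 ± 92.2 FPKM in C libraries, against 313 ± 37.2 in R libraries.

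**Figure D4:**
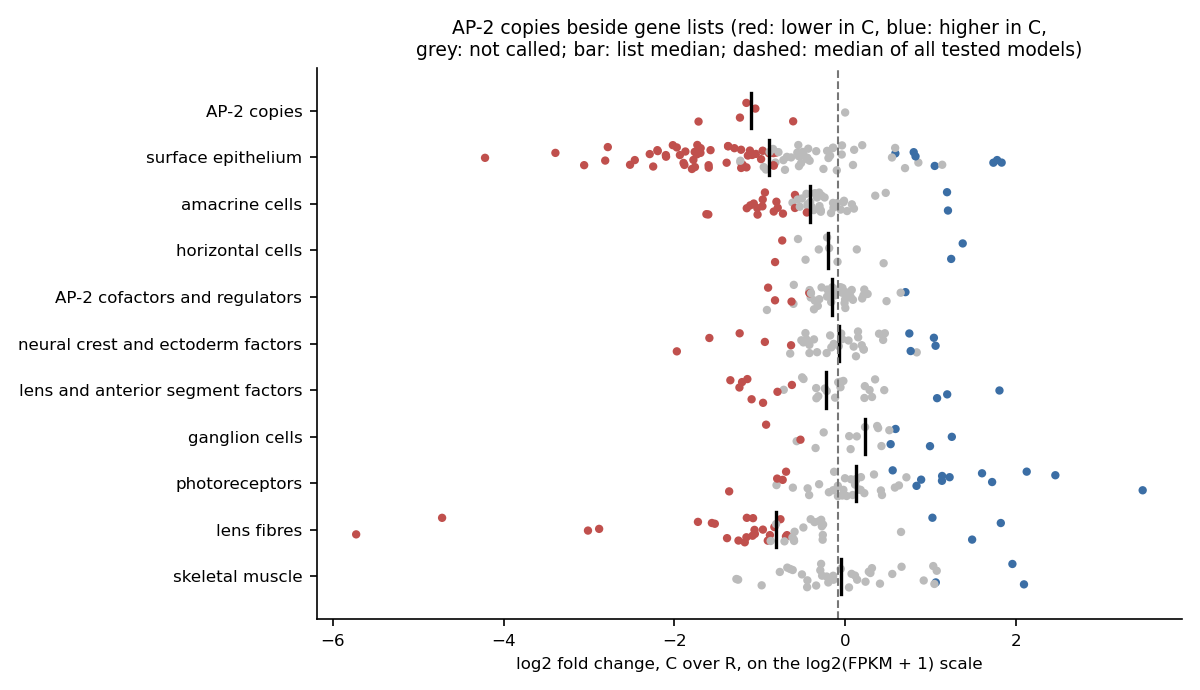
Log2 fold change of C over R (x axis) of each tested model of the AP-2 family, without the copy that chose it, and of 10 gene lists (rows), red where lower in C, blue where higher and grey where not called, with a bar at each median. The medians are -1.10 for AP-2, -0.89 for surface epithelium, -0.81 for lens fibres and -0.42 for amacrine cells. Nothing is read from the AP-2 median against the others, because the contrast also chose the family.

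Amacrine genes leaned the same way by count, while their total, in which neurod1 weighs heavily, overlapped between the letters. Of 51 tested models, 17 were lower and 2 higher in C (33.3% and 3.92%, beside 11.6% and 8.67% of all tested models), with a median log2 fold change of -0.42. The summed FPKM of the 71 models was 797 to 803 in C and 772 to 928 in R, which overlap. The gene with the highest sum in the list in C was neurod1, which photoreceptors also use, with 359 ± 33.3 FPKM in C libraries, against 157.4 ± 37.4 in R libraries. By library, neurod1 ran from 331 to 396 FPKM in C and from 129 to 200 in R. Without neurod1, which was set aside after its values were seen, the rest of the list was lower in every C library than in any R library. This rest still holds pax6, which is also a lens regulator, so nothing about amacrine cells is read from it. Such a separation held for 25.1% of single tested models. The 4 members with the smallest p all fell: copies of pax6a on chromosomes 7 and 25 (-1.60 and -1.11), a retinal and lens regulator, and copies of gad1 and gad2 (-1.07 and -1.62), which make GABA (limma adjusted p-values of 0.000689 to 0.00206). Over all copies, pax6 summed to 67.2 ± 4.39 FPKM in C libraries, against 157.6 ± 15.5 in R libraries, and gad2 to 11.2 ± 2.57 in C libraries, against 29.5 ± 3.25 in R libraries. The gad1 copies summed to 103.8 ± 13.2 FPKM in C libraries, against 133.7 ± 23.5 in R libraries. These gad1 sums came close, at 115 in the highest C library and 117 in the lowest R library. Leaving out C1, R2 or R3 lowered the count of amacrine models lower in C to 11, 10 and 10.

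Of horizontal cell genes, 2 were lower and 2 higher of 12 tested (16.7% each, beside 11.6% lower and 8.67% higher of all tested models, too few to read a difference from) and sums of 61.2 to 68.3 FPKM in C and 55.7 to 71.1 in R. Of ganglion cell genes, 2 were lower and 4 higher of 17 tested (11.8%, close to the share of all tested models, and 23.5%), with sums of 197 to 237 FPKM in C and 172 to 208 in R. Lens fibre genes were lower in C in 23 of 43 tested models and higher in 3 (53.5% and 6.98%), with sums of 27850 to 53549 FPKM in C and 67743 to 71018 in R. Of skeletal muscle genes, 0 of 37 were lower and 3 higher (0% and 8.11%), with sums of 1387 to 5007 FPKM in C and 2425 to 2687 in R, the extremes in C being C3 and C2. Between C2 and C3 the AP-2 copies differed in both directions. In C2 and C3, tfap2a had 10.1 and 10.4 FPKM on chromosome 24, and 2.10 and 2.24 on chromosome 49. tfap2c had 3.54 and 2.32 on chromosome 6, and 3.10 and 3.19 on chromosome 31. tfap2d had 4.32 and 2.45 on chromosome 20, and 1.79 and 1.90 on chromosome 45. tfap2e had 5.35 and 4.69 on chromosome 44, and 0.715 and 0.636 on chromosome 19. Leaving out R1, R2 or R3 lowered the count of lens fibre models lower in C to 13, 11 and 14. Without C2, 7 muscle models were lower in C, and without C3, 7 were higher. The small counts of horizontal and ganglion cell models changed by up to 3 with a library left out, with 0 ganglion models lower and 1 higher without R2. The part of lens, muscle or nerve cells in the AP-2 differences was not tested.

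Genes whose products act on AP-2 proteins were lower in C about as often as all tested models. The list held coactivators (cited1, cited2 and cited4, ep300, crebbp), the BTB repressors kctd1 and kctd15, the binding partner wwox and others. Of 44 tested models, 5 were lower and 1 higher in C (11.4% and 2.27%, beside 11.6% and 8.67% of all tested models), with a median log2 fold change of -0.16. A copy of kctd15, which restrains AP-2 in the zebrafish neural crest, had 0.489 ± 0.275 FPKM in C libraries, against 1.77 ± 0.423 in R libraries (-0.90, SE 0.22, limma adjusted p = 0.0252), and all its copies summed to 7.68 ± 0.425 in C libraries, against 10.9 ± 0.242 in R libraries. A copy of cited2, whose product bridges AP-2 and p300, had 23.5 ± 1.30 FPKM in C libraries, against 31.7 ± 3.13 in R libraries (-0.42, SE 0.12, adjusted p = 0.0433). All 24 crebbp models summed to 46.8 ± 9.65 FPKM in C libraries, against 52.4 ± 2.38 in R libraries, which overlap. Among them 1 crebbp copy rose in C (0.71, SE 0.20, limma adjusted p = 0.0443). These calls were narrow: without C1, R1 or R2, 0 models of the list were lower or higher, 2 or 3 were lower without C2, C3 or R3, and the highest adjusted p with a library left out was 0.0922 for the kctd15 copy, 0.126 for the cited2 copy and 0.131 for the crebbp copy.

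Most calls among models next to the AP-2 copies on their chromosomes lay around 1 copy, tfap2d on chromosome 20. Of the 80 models within 5 places of an AP-2 model, 47 were tested, with a median log2 fold change of -0.07. Of these, 2 were lower and 6 higher in C (4.26% and 12.8%, beside 11.6% and 8.67% of all tested models). In either direction this was 17.0%, beside 20.2% of all tested models. Among the 7 tested neighbours of tfap2d on chromosome 20 alone, 1 was lower and 4 were higher. Around tfap2a on chromosome 24 and around both tfap2c copies 13 neighbours were tested and 0 were called in either direction (median log2 fold change 0.01). Among them tmem14c had 14.9 FPKM in C libraries, against 17.6 in R libraries on average. Beside tfap2c on chromosome 6, rtf2 had 23.6 in C libraries, against 23.5 in R libraries. The smallest p of the 13 was that of gcnt7 beside the same copy. It had 1.47 FPKM in C libraries, against 2.80 in R libraries (-0.60, SE 0.20, limma adjusted p = 0.0747). In gcnt7, and in slc35b3 beside tfap2a, every C library lay below every R library, which held for 25.1% of all tested models. These surroundings were therefore not all flat. Around the chromosome 44 copy of tfap2e 8 were tested and 0 called. Around tfap2a on chromosome 49 only txndc5 was called (0.98, SE 0.27, limma adjusted p = 0.0396), and around tfap2e on chromosome 19 only an ext1c model (-0.76, SE 0.22, adjusted p = 0.0481). Each of these 2 calls was lost in 5 of the 6 fits that leave out a library, remaining for txndc5 without R1 and for ext1c without C2 (highest adjusted p 0.131 and 0.144).

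Around tfap2d on chromosome 20, 5 of 7 tested neighbours were called. On one side a rab10 model was lower in C, with 1.76 ± 0.35 FPKM in C libraries, against 5.73 ± 0.889 in R libraries (-1.29, SE 0.18, limma adjusted p = 0.00285). On the other side a second rab10 model was higher in C, with 15.6 ± 0.766 FPKM in C libraries, against 6.20 ± 0.636 in R libraries (1.21, SE 0.12, adjusted p = 0.000829). Models named dtnb and kif3c also occur on both sides. On the side of the lower rab10, dtnb was not called (-0.11, SE 0.17, limma adjusted p = 0.683). The kif3c model there was too low to be tested, with 0.142 ± 0.0696 FPKM in C libraries, against 1.12 ± 0.154 in R libraries. On the side of the higher rab10, dtnb and kif3c rose in C (0.73, SE 0.20, and 0.71, SE 0.17, limma adjusted p = 0.0364 and 0.0266). The dtnb call was lost with any library left out and the kif3c call with any but C3 (highest adjusted p 0.114 and 0.0871). hadhb, a subunit of a mitochondrial fatty acid enzyme, was the next tested neighbour there and rose by 0.58 (SE 0.12, limma adjusted p = 0.0125). Beside tfap2d on chromosome 45 another hadhb model was also higher in C, with 20.1 ± 1.01 FPKM in C libraries, against 11.0 ± 0.436 in R libraries (0.81, SE 0.11, adjusted p = 0.00244), next to the AP-2 copy with the most negative fold change.

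**Figure D5:**
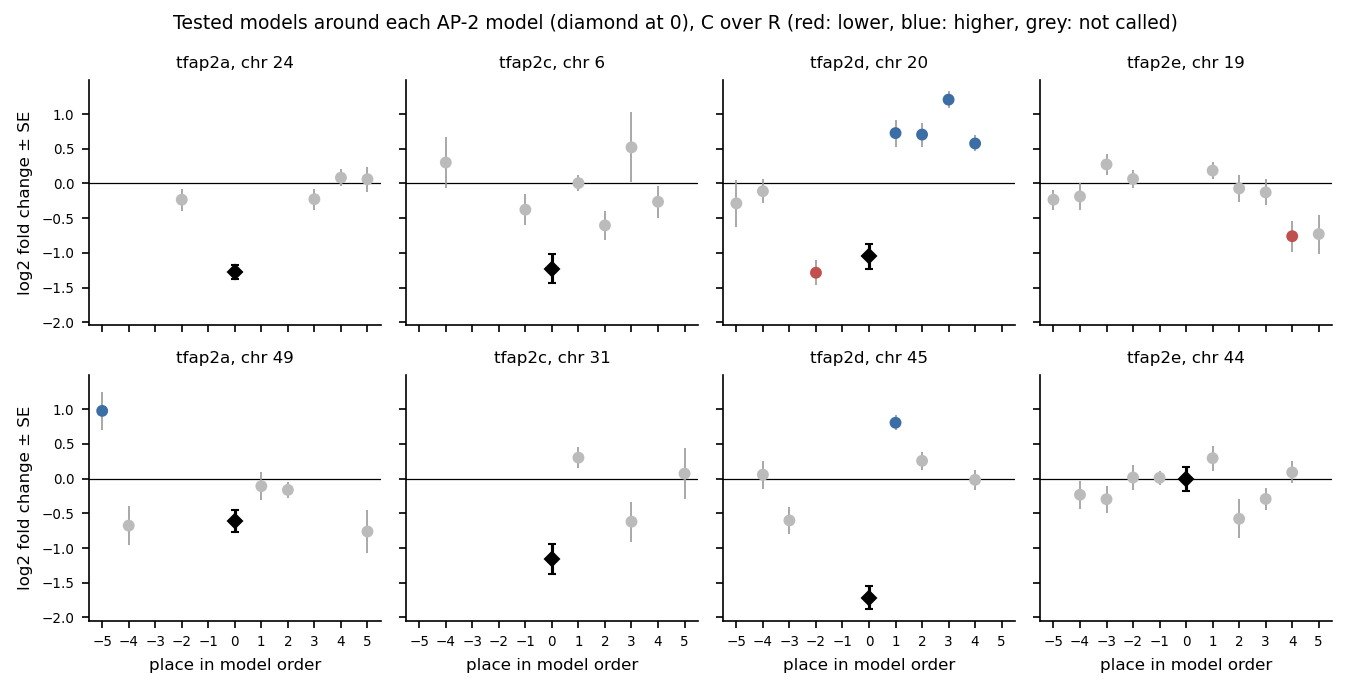
Log2 fold change of C over R with SE (y axis) of tested models at up to 5 places before and after each AP-2 model (x axis, place in the order of models, AP-2 as a black diamond at 0 where tested). Neighbours of tfap2d on chromosome 20 include 4 higher (blue) and 1 lower (red) in C, while those of tfap2a on chromosome 24 and of tfap2c are not called (grey).

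Profiles over the 6 libraries most like the main copy of each AP-2 gene were sought among 14781 named models with a mean of at least 5 FPKM, by the root mean square difference of centred log2(FPKM + 1). Nearest to tfap2a on chromosome 24 were models of plekho1 (0.0372), rsrc2 (0.0679) and rps3a (0.0738). For tfap2c, by its chromosome 31 copy, they were ddr1, a collagen receptor of epithelia (0.0966), a pax6a copy (0.107) and fzd7, a Wnt receptor (0.119). This pax6a copy had 13.7 ± 0.241 FPKM in C libraries, against 32.0 ± 6.38 in R libraries. It was picked by likeness to the chromosome 31 copy of tfap2c, so nothing is read from their shared tight C and spread R values. For tfap2d, by its chromosome 20 copy, they were tmem87a (0.0321), cytip (0.0802) and gphb5 (0.0825), and for tfap2e on chromosome 44 they were nadk (0.0411), vta1 (0.0479) and klc1 (0.0516). With 6 libraries in 2 groups, many models share such a profile.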

How the data were processed

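Whole-eye RNA of 6 goldfish libraries (3 C, 3 R) was measured. The deposited FPKM values were made by the authors. Per the submitters' processing notes, which give no roles, the tools were TopHat2 2.0.9, Bowtie 0.12.5 and DESeq 1.10.1, and a pig build (Sscrofa10.2) is listed that does not match the goldfish models. Assembly, counter and strand setting were not given in the sources used here, and reads of near-identical copies may be divided between models in ways that could not be checked. The tables of single groups repeated the whole table in all 337506 values. FPKM multiplied by length gave whole reads for 100% of values (tolerance 0.01 of a read).

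Models with at least 1 FPKM in at least 3 libraries were tested on log2(FPKM + 1) with limma 3.58.1 in R 4.3.3 (trend and robust, group as the only term, Benjamini-Hochberg adjustment, threshold 0.05). The fit was tested on simulated reads with the same groups and depths (33828 models): 43 of 99 models planted at 2-fold and 94 of 99 at 4-fold were recovered, 0 with the wrong sign, and 13 unchanged models were called. All models had the same dispersion, few were changed, and libraries differed in depth alone. These counts therefore do not give the recovery or false calls in the real libraries, where C3 stood apart. Sums and shares of copies were compared by exact permutation. Floors of 3 reads cover counting error only.

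The members and lists were chosen with earlier results of these data known. Every AP-2 model is named. From each list the rule names the 4 tested members with the smallest p, of which those in lists tied to AP-2 roles are given (a few list members are not reported here), and grhl2, tp63, klf4, neurod1, cldn7a, second copies of epcam and kit and some sums over copies were added after their values were seen. Up to 2 neighbours of smallest p per AP-2 model were to be named, with tmem14c, rtf2, dtnb, kif3c and hadhb added after their values were seen. The 3 nearest profiles per gene are named. List membership followed Swiss-Prot best matches, so related genes can share a name. A name also matched where a, b, l, la, lb or -like followed the listed symbol. By this rule rhoa and gnb1l models entered the photoreceptor list under rho and gnb1. Models of mafa and mafb entered the list of lens and anterior segment factors under maf.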

Additional observations from a re-analysis of the deposited data

How the results depend on the processing

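Beside the tfap2a copy that chose the family, the count of AP-2 copies lower in C, 5 as reported, was 5 with a pseudocount of 0.1, without a low-value filter, with limma-voom on recovered reads and without trend and robust settings. It was 4 with quantile normalization, with the median ratio set to 0 and with each library left out in turn, and 3 of the 3 copies that remained at a mean of at least 5 FPKM; the count higher in C was 0 in all of these. The copy that lost its call was tfap2a on chromosome 49. Of all tested models, 3925 of 33907 were lower in C as reported. On the same models the number ran from 1929 without R2 to 4338 with limma-voom. It was 3808 of 51243 without a low-value filter and 1711 of 16850 at a mean of at least 5 FPKM. As above, nothing is read from the members' counts against these numbers. The labels number the libraries 1 to 3 in each group. Deviations of libraries with the same number were hardly correlated across models (-0.01, 0.10 and 0.04). C2 correlated best with its own number, while C1 and C3 did not. With 3 libraries per group these correlations cannot settle whether the numbers pair the libraries. With the replicate block 4 copies were lower, tfap2a on chromosome 49 having a limma adjusted p of 0.0727. The difference in the summed tfap2a copies, -1.21 in log2, was -1.28 on recovered reads and -1.12 with the median ratio set to 0. Both moves were larger than the spread between libraries. With a library left out the difference ran from -1.23 to -1.18. Most of this sum came from the copy that chose the family, so nothing is read from how its difference held. Of 28 called models examined beside the AP-2 genes, 20 kept the call with each library left out, and all 28 kept their sign. Depth limits the minor tfap2e copy, with 5 to 18 reads per library.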

Other observations

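Factors known to act with AP-2 in the neural crest and ectoderm moved in both directions. Of 37 tested models, 5 were lower and 4 higher in C (13.5% and 10.8%, beside 11.6% and 8.67% of all tested models). A copy of dlx3b, a homeobox factor of ectoderm, had 0.851 ± 0.294 FPKM in C libraries, against 6.69 ± 3.05 in R libraries (log2 fold change -1.97, SE 0.33), and a copy of kita, the receptor of migrating pigment cells, had 1.29 ± 0.419 in C libraries, against 6.10 ± 2.49 in R libraries (-1.59, SE 0.28). All 6 models named for kit summed to 93.3 ± 0.944 FPKM in C libraries, against 84.2 ± 12.6 in R libraries, which overlap, and another kit copy was higher in C (0.77). The related zinc finger genes snai1 and snai2 went opposite ways, at -0.94 (SE 0.16) for a snai1 copy and 0.75 (SE 0.12) for a snai2 copy. Limma adjusted p-values of the 4 were 0.00485 to 0.0076. The count higher in C was 1 without C1 or R2, 2 without C2, R1 or R3 and 4 without C3.

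Of 30 tested models of lens and anterior segment factors, 8 were lower and 3 higher in C (26.7% and 10%, beside 11.6% and 8.67% of all tested models). Copies of foxc1b (-1.24, SE 0.15) and pitx3 (-1.34, SE 0.20), transcription factors of the anterior segment and lens, were lower in C, while a copy of col8a1, a collagen of the corneal endothelial basement membrane, had 47.9 ± 11.1 FPKM in C libraries, against 13.0 ± 3.04 in R libraries (1.81, SE 0.21). Limma adjusted p-values of these were 0.00149 to 0.00369. Without R2 the count lower in C was 5.

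Neither list was tested as a set, and no relation to the AP-2 differences was tested.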
